A study of Homo sapiens with 12 samples.

Results

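DU145 cells given only the solvent DMSO were set against DU145 cells given a control siRNA, all genes of the RNA-seq table being compared. The groups were chosen by the sample titles and hold 6 of the 12 libraries of the series. DU145 is a human prostate cancer line that grows without androgen. The DMSO group (3 libraries) belongs to the arm of the study that tested a compound, and its cells had DMSO, the solvent of that compound, for 12 h. The siCtrl group (3 libraries) belongs to the arm that tested an siRNA, and its cells were transfected with a non-targeting siRNA and cultured for 24 h. In both groups thapsigargin (Tg), which blocks the calcium pump of the endoplasmic reticulum (ER) and so causes ER stress, was present at 30 nM for 3 h before harvest. No unstressed cells were analysed here. Transfection, time in culture and solvent therefore differ together between the groups and cannot be told apart. The labels also conflict: a field on transfection names the same control siRNA for the DMSO libraries, whereas titles and treatment text give those cells DMSO alone. The other 6 libraries, Ceapin (10 µM Ceapin-A7, a compound that holds the ER stress sensor ATF6 in the ER, for 12 h) and siATF6 (an siRNA against ATF6, 24 h), form the same pair of arms with ATF6 impaired on both sides. Their difference, Ceapin minus siATF6, shares no library with DMSO minus siCtrl and is given beside it for many of the genes and lists. For the Ceapin libraries the field on transfection names the siRNA against ATF6, whereas titles and treatment text give Ceapin-A7 only. Titles were followed for all groups.

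As background, both groups are the reference cells of their arm, and in neither was ATF6 inhibited by design. Transfection brings a lipid reagent and a short double-stranded RNA into the cell. That RNA is loaded into an Argonaute protein, and foreign RNA can also be read by the sensors that turn on NF-kB and interferon genes. The time since cells were plated changes how dense they are, how fast they divide and how much of the medium they have used. Carcinoma cells can shift between an epithelial state, held together by E-cadherin and resting on keratins, and a mesenchymal state with matrix and migration genes.

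The libraries held 17760878 to 18347774 counts in DMSO and 17782165 to 19202632 counts in siCtrl, and 17823 of 21439 genes passed the filter on low counts. Every listed gene had at least 1 count in each of the 12 libraries, so genes at 0 anywhere were not analysed here. The first principal component held 71.8% of the variance and parted the DMSO and Ceapin libraries from the siCtrl and siATF6 libraries. The second held 8.92% and parted siCtrl from siATF6. No library stood apart from its group on these components. Of the markers of DU145 as an epithelial line, KRT8, KRT18, KRT19, EPCAM and CDH1 were detected in both groups. The summed level of tested markers of other cell types was 2.598 to 3.757 CPM (counts scaled to library size, as a level per read) in DMSO and 3.971 to 4.849 CPM in siCtrl for leukocytes. It was 21.6 to 22.2 CPM in DMSO and 12.93 to 14.49 CPM in siCtrl for fibroblasts, and 5.149 to 5.746 CPM in DMSO and 5.35 to 5.982 CPM in siCtrl for endothelium. The marker genes PTPRC and CD3E (leukocytes), COL1A2, DCN and LUM (fibroblasts) and TEK (endothelium) were not among the tested genes.

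The RNA of DMSO cells differed from that of siCtrl cells in most of the genes measured. Of 17823 genes, 5557 were higher in DMSO (31.2%) and 5469 were lower (30.7%) at an adjusted p under 0.05 (edgeR quasi-likelihood test, Benjamini-Hochberg adjustment over all tested genes). The directions balanced, with a median log2 fold change over all tested genes of 0.009. The library scaling used (TMM) takes most genes as unchanged, so this balance is partly set by it. With library totals instead, 5260 genes were called higher and 5768 lower. Most of the differences called with TMM scaling were small. The median called difference was 1.38-fold, 2651 called genes (24.0%) differed by less than 1.2-fold, and 747 genes (4.19%) were at least 2-fold higher in DMSO and 832 (4.67%) at least 2-fold lower. DMSO cells were higher in most genes of the lists of epithelial identity, DNA replication, mitosis, the mitochondrial genome and the TCA cycle. They were lower in most genes of the lists of chemokines and cytokines, immediate-early genes, TGF-beta and BMP genes, hypoxia genes, amino acid synthesis and transport, and histones. Because so many genes passed, the count of called members in any list is read against the 31.2% and 30.7% over all genes, and the replicates differed by more than counting noise but by little. The sources used here do not say whether replicates came from separate cultures, so p-values measure the spread between these libraries, which may be technical. In RNA from whole cultures, fewer cells of one state and less RNA per cell cannot be told apart.

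**Figure D1:**
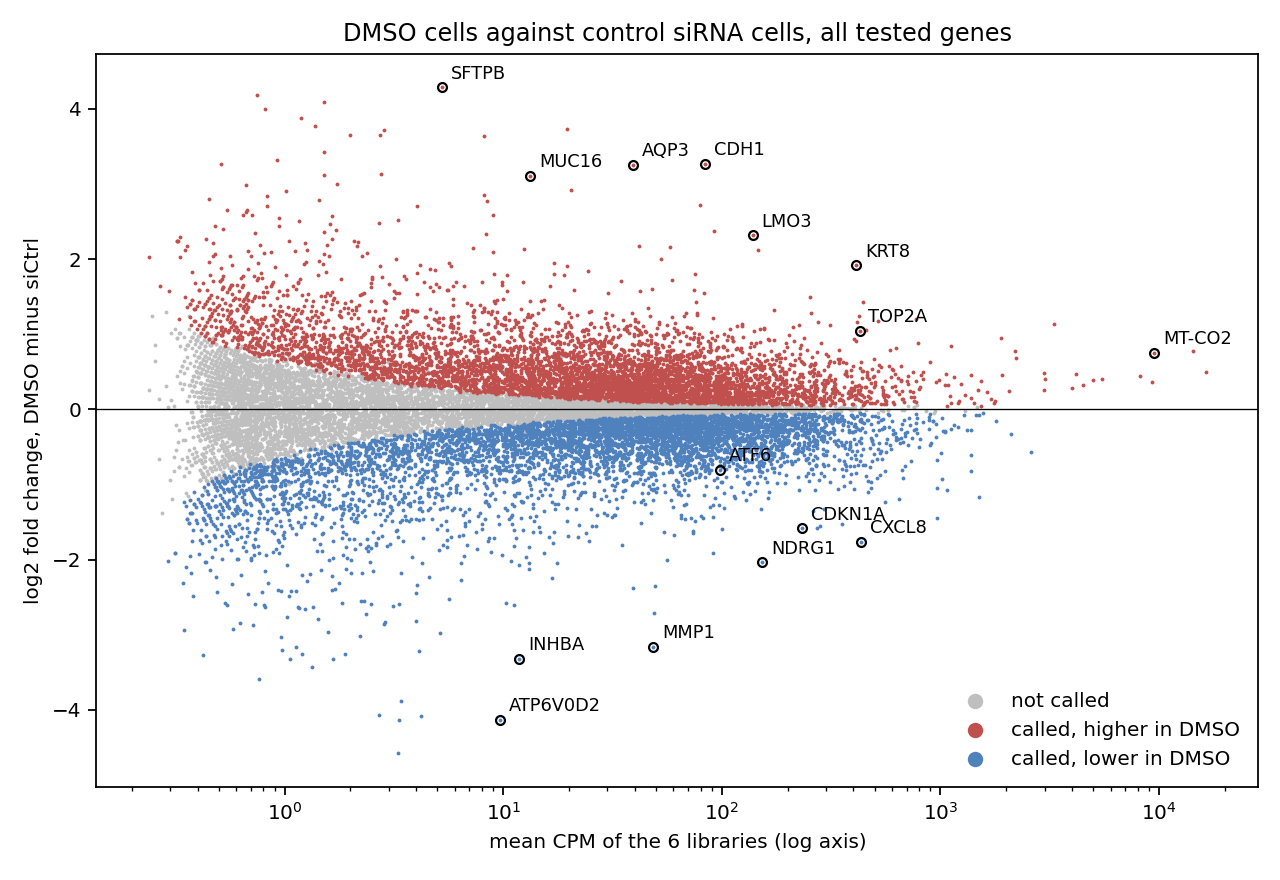
Each point is 1 of 17823 tested genes, with its mean CPM over the 6 libraries on a log axis and its log2 fold change, DMSO minus siCtrl, on the vertical axis; red points were called higher in DMSO and blue points lower. Called genes lie on both sides at every level, with SFTPB, CDH1 and AQP3 near the top and ATP6V0D2, INHBA and MMP1 near the bottom.

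The arms' difference recurred in the libraries that DMSO minus siCtrl does not use. In Ceapin minus siATF6, 61.2% of genes were called, 5596 higher in Ceapin (31.4%) and 5305 lower (29.8%). Called in the same direction in both were 8333 genes, 75.6% of the calls of DMSO minus siCtrl and 76.4% of those of Ceapin minus siATF6, with 4214 higher in both (23.6% of tested genes) and 4119 lower in both (23.1%). Another 440 genes were called in opposite directions. Of the 1579 genes that differed at least 2-fold between DMSO and siCtrl, 1329 (84.2%) were called in the same direction in Ceapin minus siATF6 and 4 in the opposite one. All 4 groups entered a single fit, so the contrasts share its estimate of spread.

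ATF6 itself, the gene targeted in the siATF6 cells, was not equal in the control groups. ATF6 (ENSG00000118217, chromosome 1, 161766294 to 161964070, GRCh38, protein-coding) had 69.3, 73.3 and 71.5 CPM in the DMSO libraries and 123, 126 and 125 CPM in the siCtrl libraries. The groups did not overlap, as was so for 33.0% of tested genes with DMSO above and 32.5% with DMSO below. ATF6 mRNA was 1.75-fold lower in DMSO (log2 fold change −0.80, SE 0.0316, edgeR adjusted p = 1.1e-20). In the other 6 libraries it averaged 72.9 ± 1.91 CPM in Ceapin and 25.8 ± 0.81 CPM in siATF6 (SD, n = 3 each), the second being the group in which ATF6 was targeted. DMSO and Ceapin cells thus stood at like ATF6 levels, between siCtrl above and siATF6 below.

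Among the gene lists, that of epithelial genes held the largest single rise. Of 25 tested members of the epithelial list, 18 were higher in DMSO (72.0%) and 4 lower (16.0%), with a median log2 fold change of 0.61 against 0.009 over all tested genes. Their summed level was 2972 to 3024 CPM in DMSO and 1666 to 1722 CPM in siCtrl. Between Ceapin and siATF6, 21 were higher in Ceapin and 2 lower, and 18 members were higher in both.

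CDH1 (ENSG00000039068, chromosome 16, 68737225 to 68835548, protein-coding) encodes E-cadherin, the adhesion protein of epithelial junctions. It had 154, 153 and 149 CPM in DMSO and 15.5, 16.2 and 15.7 CPM in siCtrl. Every DMSO library stood far above every siCtrl library, a 9.62-fold difference (log2 fold change 3.27, SE 0.0414, edgeR adjusted p = 3.8e-33). In the other libraries CDH1 averaged 138.2 ± 2.66 CPM in Ceapin and 14.6 ± 0.893 CPM in siATF6 (SD, n = 3 each), and the gap between the arm differences was not called (0.02, SE 0.0714, edgeR adjusted p = 0.88). CDH3, the P-cadherin gene that neighbours CDH1 on chromosome 16 (68636189 to 68722616), had 154, 157 and 150.0 CPM in DMSO and 30.7, 28.3 and 30.5 CPM in siCtrl, 5.16-fold higher in DMSO. KRT8, a keratin of simple epithelia, had 641, 663 and 654 CPM in DMSO and 171, 177 and 171 CPM in siCtrl. Its partner KRT18 had 369.8, 389 and 363 CPM in DMSO and 137, 134 and 128 CPM in siCtrl. The 2 keratins were 3.77-fold and 2.81-fold higher in DMSO without overlap, with the reserve that processed copies of both genes in the genome can share their reads.

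Other epithelial genes, chosen after their values were seen, moved less evenly. The mucin gene MUC1 averaged 94.6 ± 4.73 CPM in DMSO and 21.1 ± 0.965 CPM in siCtrl (SD, n = 3 each). The desmosome genes JUP (1.01) and PKP3 (1.06), both log2 fold changes, were also higher in DMSO, and EPCAM was 1.55-fold higher. KRT19 differed by only 1.06-fold (log2 fold change 0.09). The 4 members lower in DMSO were the tight junction gene CLDN1 (−0.76), the desmosome gene DSP (−0.22), the transcription factor gene ELF3 (−0.28) and the polarity gene CRB3 (−0.41). So junction genes did not all go one way, and of these 4 CLDN1 and DSP were also called lower in Ceapin minus siATF6 (−0.39 and −0.07).

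Several of the largest rises outside the list were genes of secreting or absorbing epithelia. SFTPB, a lung surfactant protein gene, had 9.95, 10.3 and 9.69 CPM in DMSO and 0.557, 0.516 and 0.446 CPM in siCtrl, a 19.5-fold difference. SUSD2, a membrane protein gene, was 13.3-fold higher, and DMBT1, a mucin-like protein of mucosal defence, 12.4-fold higher. AQP3, a water and glycerol channel, had 71.3, 71.5 and 70.3 CPM in DMSO and 6.8, 7.38 and 8.13 CPM in siCtrl. Lack of overlap was a condition for naming the largest rises and falls and adds nothing to them. The sodium channel subunit SCNN1A was 7.55-fold higher, the mucin MUC16 8.63-fold and the aspartic protease NAPSA 7.24-fold. The rest of the 15 largest rises were the gluconeogenic enzyme FBP1 (6.85-fold), IGFBP4, which binds insulin-like growth factors (6.61-fold), the proteoglycan CSPG4 (5.99-fold), the arginine deiminase PADI2 (5.06-fold), LMO3 (4.97-fold) and the mitochondrial carrier UCP2 (4.49-fold), beside CDH1 and CDH3. All 15 were higher in Ceapin than in siATF6 as well, by log2 fold changes from 2.08 for LMO3 to 4.51 for SFTPB.

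**Figure D2:**
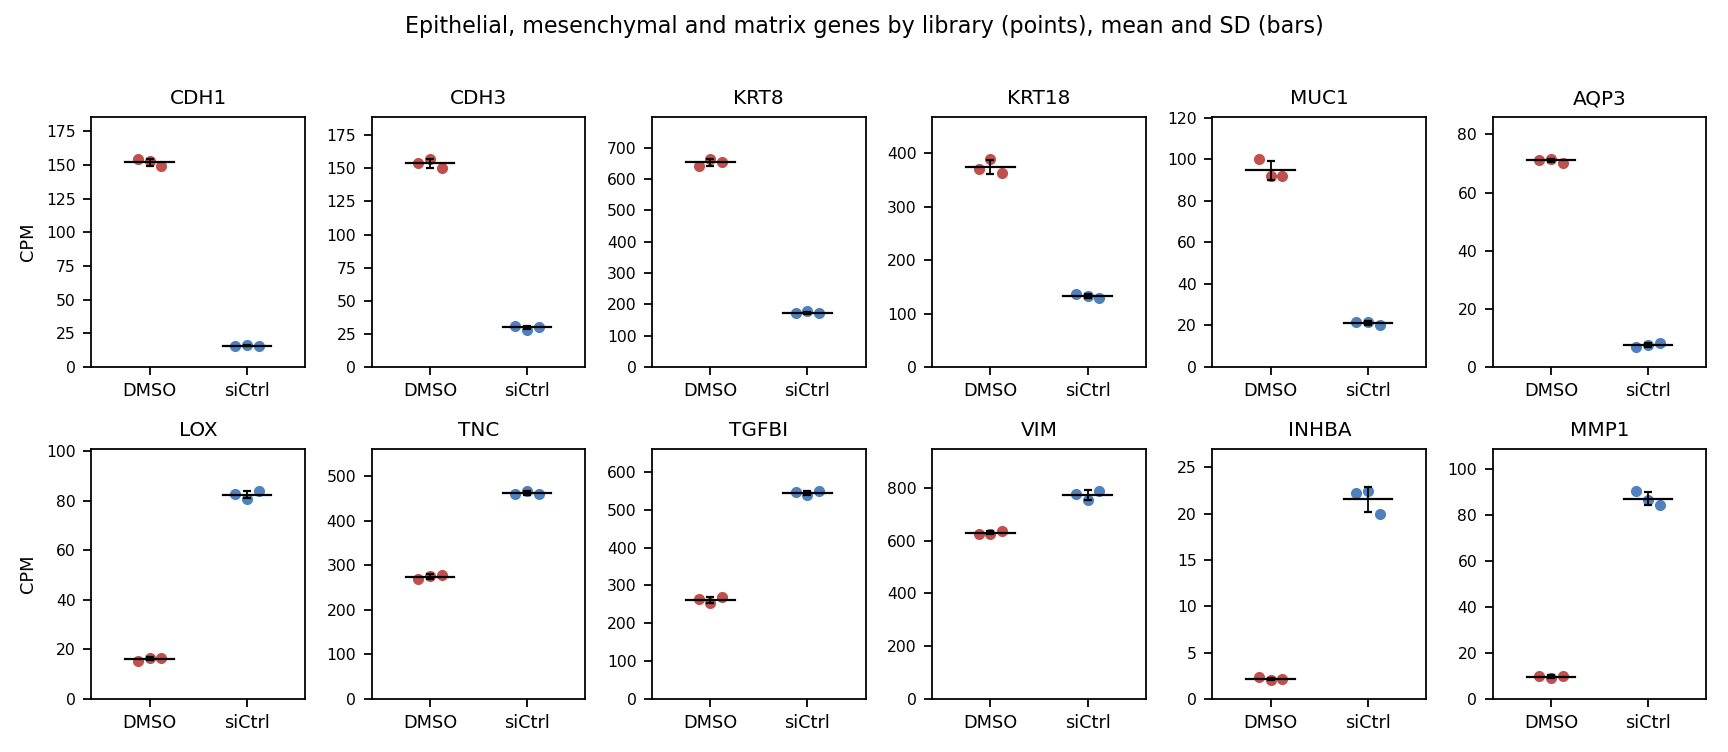
CPM of 12 genes by library (points), with the mean (line) and SD (bars) of 3 DMSO and 3 siCtrl libraries, each axis starting at 0. The upper row shows genes higher in DMSO, with CDH1 at 149 to 154 CPM in DMSO and 15.5 to 16.2 CPM in siCtrl, and the lower row shows genes lower in DMSO, where VIM differs least.

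Mesenchymal genes were mixed. Of 15 tested members, 5 were higher in DMSO (33.3%) and 9 lower (60.0%), with a median log2 fold change of −0.32. LOX, which crosslinks collagen, had 15.4, 16.3 and 16.6 CPM in DMSO and 82.6, 80.9 and 83.9 CPM in siCtrl, 5.12-fold lower in DMSO. TGFBI, a matrix protein induced by TGF-beta, was 2.08-fold lower, the matrix gene TNC 1.69-fold and the fibronectin receptor subunit ITGA5 1.77-fold. Of the transcription factors that repress CDH1, ZEB1 was at −0.61 and ZEB2 at −1.70 (log2 fold changes), and ZEB2 had 2.71, 2.88 and 2.55 CPM in DMSO and 9.7, 8.56 and 8.24 CPM in siCtrl. SNAI2, a repressor of the same kind, was at −1.31. SNAI1 (0.45) and TWIST2 (0.57), factors of the same kind, were instead called higher in DMSO. All 5 were chosen after their values were seen, and ZEB1, ZEB2 and SNAI2 were also called lower in Ceapin minus siATF6 (−0.70, −1.37 and −1.72). VIM, the mesenchymal filament protein, was 1.23-fold lower, whereas S100A4, a calcium-binding protein often raised in mesenchymal cells, was 3.46-fold higher in DMSO.

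Matrix and adhesion genes followed no single direction. Of 19 extracellular matrix genes, 4 were higher in DMSO and 12 lower (63.2%, median −0.31). The perlecan gene HSPG2 had 117, 119 and 116 CPM in DMSO and 32.9, 34.1 and 33.2 CPM in siCtrl, while the collagen-modifying enzyme P4HA1 was 2.2-fold lower and the laminin gene LAMB3 1.57-fold lower. The matrix glycoprotein THBS1 was 1.93-fold higher. Integrin and focal adhesion genes split evenly, 9 higher and 9 lower of 20 (median 0.01). The caveolae genes CAV1 and CAV2 were 2.69-fold and 1.77-fold higher in DMSO, whereas the collagen receptor ITGA2 was 2.08-fold and the vitronectin receptor ITGAV 1.61-fold lower. Genes of the YAP/TAZ list, many of which respond to cell density and tension, also split, 8 higher and 6 lower of 16 (median 0.09), with F3 (0.81) and WWC1 (0.92) higher and NT5E (−0.75) and PTPN14 (−0.55) lower (log2 fold changes).

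Genes of the TGF-beta and BMP pathways were mostly lower in DMSO. Of 19 tested ligands, receptors, signal transducers and targets, 3 were higher and 14 lower (73.7%), with a median of −0.68. INHBA (ENSG00000122641, chromosome 7, 41667168 to 41705834), the subunit that forms activin A, had 2.32, 2.03 and 2.1 CPM in DMSO and 22.2, 22.4 and 20 CPM in siCtrl. It was 9.98-fold lower in DMSO (edgeR adjusted p = 2.9e-23), and averaged 2.75 ± 0.0771 CPM in Ceapin and 19.9 ± 1.10 CPM in siATF6 (SD, n = 3 each). The receptor TGFBR1 (−0.80), the signal transducer SMAD3 (−0.54) and the feedback inhibitor SKIL (−0.90) were lower too, while the ligand BMP4 was 2.78-fold higher (log2 fold changes in brackets). Of the other ligands, BMP2 (−1.17), TGFB2 (−0.85) and TGFB1 (−0.10) were lower and TGFB3 was not called (0.24, edgeR adjusted p = 0.077). These 5 ligands were chosen after their values were seen.

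Genes of inflammation were lower in DMSO, most of all the chemokines by their median. Of 15 tested chemokines and cytokines, 2 were higher in DMSO (13.3%) and 12 lower (80.0%), with a median log2 fold change of −0.82. The summed level was 956 to 980.5 CPM in DMSO and 1626 to 1647 CPM in siCtrl. CXCL8 (ENSG00000169429, chromosome 4, 73740506 to 73743716), which encodes interleukin 8, had 193, 193 and 205 CPM in DMSO and 667, 657 and 681 CPM in siCtrl. Its level was 3.39-fold lower in DMSO without overlap (log2 fold change −1.76, SE 0.0252, edgeR adjusted p = 7.8e-32). IL6 had 46.8, 39.9 and 41.8 CPM in DMSO and 81.3, 80.7 and 88.5 CPM in siCtrl. The neutrophil chemokine CXCL2 had 50.1, 50.3 and 56.6 CPM in DMSO and 93.2, 90.2 and 94.1 CPM in siCtrl. IL24 was 5.19-fold and the myeloid growth factor CSF2 5.75-fold lower in DMSO. The collagenase MMP1, a common output of the same signals, had 10.2, 9.26 and 9.74 CPM in DMSO and 90.6, 86.7 and 84.6 CPM in siCtrl, 8.97-fold lower.

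The other pair of arms gave smaller values for several of these genes. In Ceapin minus siATF6, 9 of the 15 chemokine and cytokine genes were lower and 4 higher (median −0.57), and the gap between the contrasts was called for 10 of them. The log2 fold changes of CXCL8 were −1.76 in DMSO minus siCtrl and −0.78 in Ceapin minus siATF6, and this gap was itself called (−0.98, SE 0.0345, edgeR adjusted p = 8.9e-21). CXCL8 averaged 376.0 ± 2.64 CPM in Ceapin and 645.5 ± 17.7 CPM in siATF6 (SD, n = 3 each).

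A known NF-kB sequence was then searched in the promoters of these genes. The letters GGG and, after 3 bases of any kind, TTCC, a form of the site that NF-kB dimers bind, were searched on both strands from 250 bases before to 50 bases after the gene start, in RefSeq promoters of GRCh38.p14. The letters occurred in 7 of 12 chemokine and cytokine promoters (58.3%) and in 6 of 16 promoters of the NF-kB list (37.5%). The share was 897 of 11932 over all tested genes with a searched promoter (7.52%). Of the 7, CCL20, CXCL1, CXCL2, CXCL3, CXCL5 and IL6 were called lower in DMSO and CXCL6 higher. The CXCL8 promoter was searched and held no match to these letters. It does hold a near form, with T in place of the first G, so the lack of a match does not show that NF-kB has no site there. CXCL2 is shown because its match lies close to its start: the matches on the 2 strands overlap and begin at −78, and stand in capitals (chr4:74099146-74099445, minus strand, GRCh38.p14).
CXCL2: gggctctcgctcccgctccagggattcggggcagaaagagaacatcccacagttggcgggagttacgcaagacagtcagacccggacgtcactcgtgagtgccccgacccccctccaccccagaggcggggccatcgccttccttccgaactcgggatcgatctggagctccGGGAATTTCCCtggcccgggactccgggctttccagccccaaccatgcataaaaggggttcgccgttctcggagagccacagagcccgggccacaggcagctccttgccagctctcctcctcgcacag

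NF-kB feedback and target genes differed less. Of 19, 2 were higher in DMSO (10.5%) and 14 lower (73.7%), but with a median of only −0.23, and 7 were lower and 6 higher in Ceapin minus siATF6 (median 0.01). NFKBIZ, an inducible NF-kB cofactor, was 1.8-fold lower in DMSO, the survival gene BIRC2 1.6-fold, the subunit gene NFKB2 1.39-fold and the activation marker CD83 2.24-fold. The adhesion gene ICAM1, chosen after its values were seen, had 286 ± 4.3 CPM in DMSO and 284.0 ± 4.66 CPM in siCtrl (SD, n = 3 each) and was not called (log2 fold change 0.01, edgeR adjusted p = 0.68).

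Interferon-stimulated genes did not move as a block. Of 28 tested, 9 were higher in DMSO (32.1%) and 12 lower (42.9%), with a median of −0.09, with 14 higher and 8 lower in Ceapin minus siATF6 (median 0.25). IRF1, an interferon and NF-kB responsive transcription factor, had 34.1, 36.4 and 34.9 CPM in DMSO and 67.3, 63.4 and 59.2 CPM in siCtrl. The antiviral gene IFIT2 was 1.73-fold lower in DMSO, while IFITM3, which blocks virus entry, was 1.97-fold higher. Summed, the list stood at 664.6 to 674.6 CPM in DMSO and 656.4 to 679.7 CPM in siCtrl, so the groups overlapped. The letters TTTC and, after 2 bases of any kind, TTTC again, the core of the interferon response element, searched on both strands, lie in 13 of 21 of their promoters (61.9%) against 321 of 11932 (2.69%).

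Sensors of foreign RNA and DNA were more often lower, 9 of 15 (60.0%) against 4 higher (median −0.20). Between Ceapin and siATF6 this lean did not recur, with 5 higher in Ceapin and 4 lower (median 0.05). TRIM25, the ubiquitin ligase that activates the RNA sensor RIG-I, had 162, 168 and 171 CPM in DMSO and 416, 421 and 416 CPM in siCtrl, 2.5-fold lower in DMSO. IFI16, a sensor of DNA, was 3.21-fold lower and the kinase EIF2AK2, which binds double-stranded RNA, 1.23-fold lower. RIGI itself, chosen after its values were seen, was 1.15-fold lower. Of 11 tested MHC class I and antigen processing genes, 2 were higher and 6 lower (median −0.31): B2M, the light chain of MHC class I, was 1.52-fold lower, and the peptide-trimming enzymes ERAP1 and ERAP2 1.46-fold and 1.65-fold. Reads of the HLA genes themselves can be shared among their near-identical copies, so HLA values are uncertain.

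The mRNAs of proteins that carry out RNA interference differed in both directions. Of 14 genes, 6 were higher in DMSO and 7 lower (median −0.24). AGO2, the Argonaute that cuts target RNA, had 153, 159 and 156 CPM in DMSO and 288, 295 and 288 CPM in siCtrl. DICER1, which cuts precursors into short RNAs, had 169, 165 and 176 CPM in DMSO and 304, 314 and 324 CPM in siCtrl. The silencing partners TNRC6A and AGO4 were 1.61-fold and 2.00-fold lower. All 4 were lower in Ceapin minus siATF6 as well, by −0.84, −0.84, −0.99 and −0.78 on the log2 scale. DROSHA, the nuclear enzyme that releases microRNA precursors, was 1.44-fold higher in DMSO.

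Genes of cell division were higher in DMSO with few exceptions. All 34 genes of the G2/M and mitosis list were higher (median 0.57), as were 26 of 30 S-phase entry and replication genes (86.7%, median 0.84; the G1/S list), with 1 lower. Ceapin exceeded siATF6 in 30 of the 34 and 27 of the 30. TOP2A (chromosome 17, 40388516 to 40417950), which untangles replicated DNA, had 578, 575 and 573 CPM in DMSO and 279, 276 and 281 CPM in siCtrl. The proliferation marker MKI67 had 437, 430.2 and 440.2 CPM in DMSO and 255, 243 and 262 CPM in siCtrl. Both were apart in every library, 2.07-fold and 1.72-fold higher in DMSO. CDC20, which starts anaphase, was 1.97-fold higher and the spindle protein PRC1 1.84-fold. Of the replication genes, the helicase subunit MCM5 had 159.6, 161 and 160.3 CPM in DMSO and 74.3, 77 and 71.1 CPM in siCtrl. CDC6, which loads that helicase, was 2.09-fold higher, RRM2, a subunit of the enzyme that makes deoxynucleotides, 1.92-fold, and MCM4 1.59-fold. The 1 gene of the G1/S list lower in DMSO was CCND1 (cyclin D1), 1.42-fold lower, and it was higher in Ceapin minus siATF6 (0.25). RRM2 differed between the arm contrasts, 0.94 in DMSO minus siCtrl and 0.29 in Ceapin minus siATF6.

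Mitotic promoters often hold the sequence TTTGAA, the cell cycle homology region bound by the repressor complex of mitotic genes. It was found in 18 of 28 promoters of the G2/M list (64.3%), both strands searched, against 1172 of 11932 over all tested genes with a searched promoter (9.82%). A match describes the letters and shows no binding. Other motifs were searched in the same way. The sterol element, TCAC and, after 1 base of any kind, CCAC, was in 1 of 18 cholesterol gene promoters (5.56%, against 1.09% of all). The heat-shock element, GAA, TTC and GAA each 2 bases apart, was in 2 of 14 heat-shock gene promoters (14.3%, against 0.344%). A pair of motifs was added after the data were seen. The AP-1 site TGANTCA was in 1 of 16 immediate-early promoters (6.25%) and 1 of 12 mesenchymal promoters (8.33%), against 4.78% of all. The E-box CACCTG was in 7 of 13 epithelial promoters (53.8%), against 18.9% of all. Of these 7 genes, CLDN3, LAD1 and MUC1 were called higher in DMSO, CRB3, DSP and ELF3 lower, and OCLN was not called. CDH1 had no promoter in the reference and was not searched. The promoters of a pair of the genes above are shown with their matches in capitals: TOP2A (chr17:40417847-40418146, minus strand, GRCh38.p14, matches starting at −194 and −151 from the gene start) and CDC20 (chr1:43358731-43359030, plus strand, matches at −178 and −65).
TOP2A: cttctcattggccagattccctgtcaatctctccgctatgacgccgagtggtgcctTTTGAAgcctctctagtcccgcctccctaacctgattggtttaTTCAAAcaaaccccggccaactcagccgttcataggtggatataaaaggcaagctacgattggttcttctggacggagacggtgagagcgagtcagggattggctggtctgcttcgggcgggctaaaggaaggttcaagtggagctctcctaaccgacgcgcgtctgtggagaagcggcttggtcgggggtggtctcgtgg
CDC20: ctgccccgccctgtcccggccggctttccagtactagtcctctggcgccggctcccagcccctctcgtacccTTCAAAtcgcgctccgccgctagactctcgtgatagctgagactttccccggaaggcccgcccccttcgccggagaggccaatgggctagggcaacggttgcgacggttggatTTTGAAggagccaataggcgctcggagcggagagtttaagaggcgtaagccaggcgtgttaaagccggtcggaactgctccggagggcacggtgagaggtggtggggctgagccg

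Further groups tied to division went other ways. The list of cyclin-dependent kinase inhibitors, which also holds RB family genes and the phosphatase gene CDKN3, had 3 higher and 2 lower of 10. Of its inhibitors proper, CDKN1A and CDKN2C were called. CDKN1A (p21; chromosome 6, 36676460 to 36687339) had 115, 119 and 115 CPM in DMSO and 346, 361 and 339.9 CPM in siCtrl, 3.00-fold lower in DMSO (edgeR adjusted p = 1.6e-28), while CDKN2C (p18) was 3.49-fold higher, at 25, 26.8 and 27.6 CPM in DMSO and 8.36, 7.63 and 6.74 CPM in siCtrl. Of 9 tested replication-dependent histone genes, 8 were lower in DMSO and 0 higher (median −0.98), opposite in direction to the replication genes. H2AC6 had 38.6, 36.2 and 39.1 CPM in DMSO and 146, 139 and 146 CPM in siCtrl, and H2BC21 was 2.7-fold, H2BC4 2.36-fold and H1-2 1.55-fold lower. Histone genes have near-identical copies that can share reads, so the value of any 1 of them is uncertain. Of 21 p53-responsive genes, 6 were higher and 10 lower (median −0.11). The death receptor TNFRSF10B was 1.96-fold, the stress gene SESN2 1.59-fold, PLK2 1.46-fold and the antiproliferative gene BTG2 1.82-fold lower. TNFRSF10B and SESN2 are also counted among the ER stress effectors below, and p53 activity was not tested.

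**Figure D3:**
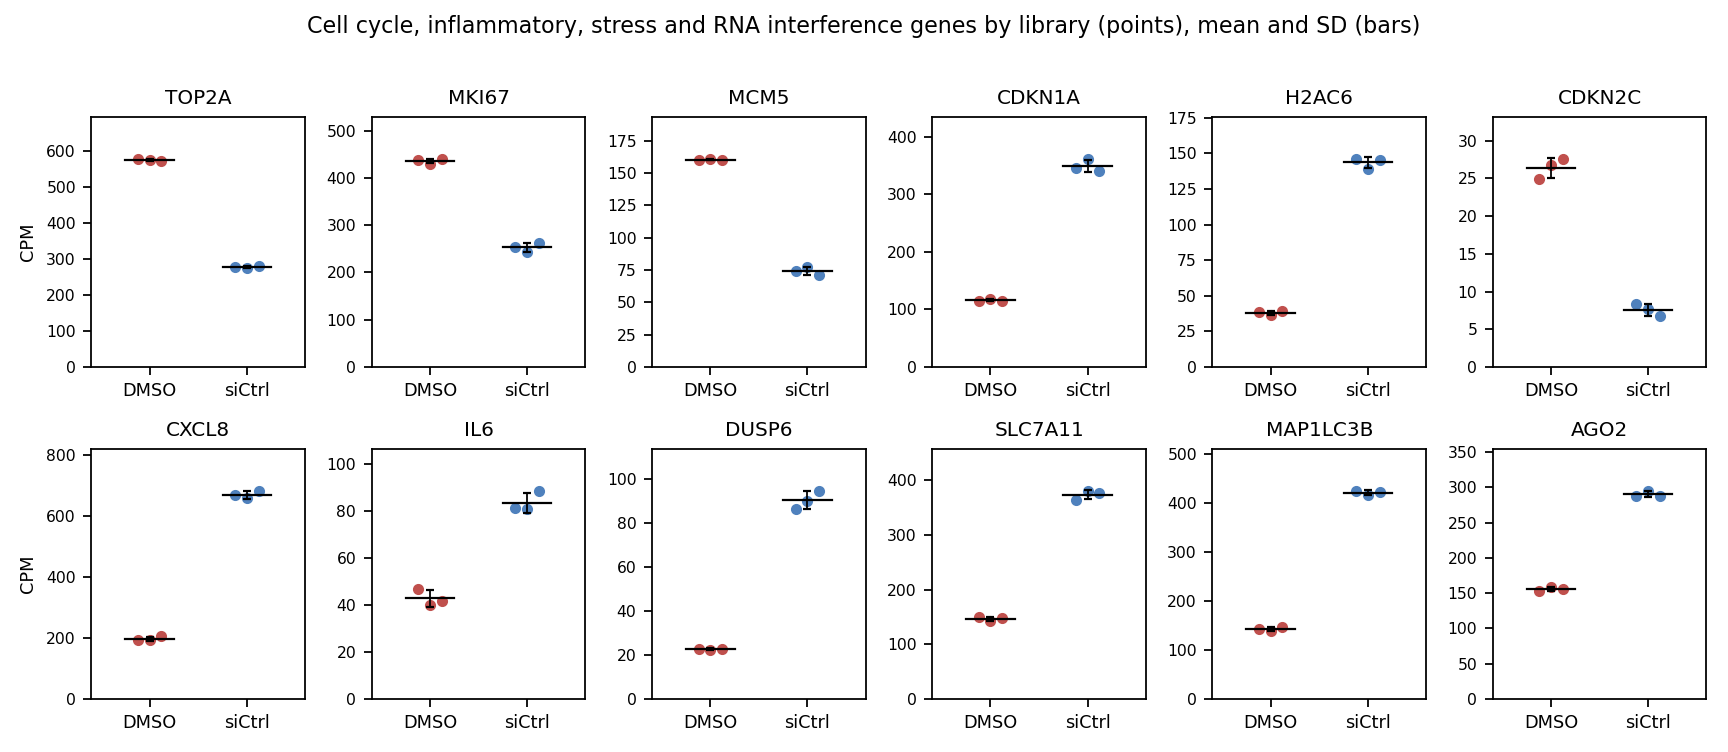
CPM of 12 genes of cell division, inflammation, stress and RNA interference by library (points), with the mean (line) and SD (bars) of 3 DMSO and 3 siCtrl libraries; axes start at 0. TOP2A, MKI67, MCM5 and CDKN2C lie higher in DMSO and the other 8 lower, with no overlap between groups in any panel.

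Most immediate-early and ERK feedback genes were lower in DMSO. Of 21 immediate-early genes, which respond within minutes to stimuli, 3 were higher and 17 lower (median −0.69). FOSB had 53.4, 49.1 and 49.9 CPM in DMSO and 122, 125 and 128 CPM in siCtrl, and ATF3 56.3, 54.1 and 59.9 CPM in DMSO and 141, 132 and 141 CPM in siCtrl. KLF10 was 1.9-fold lower, whereas FOSL2, an AP-1 subunit, was 1.53-fold higher. Of 17 feedback genes of ERK, the growth factor kinase, 16 were lower (94.1%, median −0.64) and 1, EPHA2, higher (1.31-fold). DUSP6, the phosphatase that turns ERK off, had 22.8, 22 and 22.8 CPM in DMSO and 86.3, 89.7 and 94.4 CPM in siCtrl. DUSP5, DUSP4 and EMP1 were 2.3-fold, 2.65-fold and 2.1-fold lower. In Ceapin minus siATF6, 12 of the 17 were lower and 3 higher, and DUSP5 was level (0.01). The EGF receptor gene EGFR (1.3-fold lower) and its feedback inhibitor ERRFI1 (1.34-fold lower) went with them, although the list of EGF receptors and ligands as a whole split, 4 higher and 6 lower of 12, against 8 higher and 3 lower in Ceapin minus siATF6.

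Metabolic genes divided between the mitochondrion and the stress pathways. Genes of the TCA cycle were mostly higher in DMSO, 20 of 24 against 3 lower (83.3%, median 0.27). SUCLG2, a subunit of succinyl-CoA ligase, had 55.6, 56.3 and 55.4 CPM in DMSO and 25.2, 24.3 and 24.9 CPM in siCtrl. OGDH, another enzyme of the cycle, was 1.78-fold higher, citrate synthase (CS) 1.39-fold and SDHB 1.46-fold. In Ceapin minus siATF6, 14 were higher and 5 lower, and CS (0.07) and SDHB (0.04) differed little there. Nuclear genes of the respiratory chain were 17 higher and 7 lower of 32 (median 0.20).

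All 13 protein genes of the mitochondrial genome were higher in DMSO (median 0.47), and 11 of them in Ceapin minus siATF6. MT-CO2, a cytochrome oxidase subunit, had 12126, 11715 and 11989 CPM in DMSO and 6746, 7110 and 7491 CPM in siCtrl. MT-CO1 was 1.42-fold and MT-ND4L 1.6-fold higher. Together the 13 genes took 9.1%, 8.49% and 8.48% of the counts in DMSO and 5.72%, 6.16% and 6.17% in siCtrl, 2.68 percentage points more in DMSO. An exact two-sided permutation test over the 6 libraries gave p = 0.1, the smallest that 3 against 3 can give. The part of this share in the other differences was not tested. With all genes of the mitochondrial genome removed before scaling, 11021 genes were called in place of 11026. Of these, 5423 were higher in DMSO in place of 5557, and 5598 lower in place of 5469. The shares of called genes also moved with gene length: of 4 equal classes of protein-coding genes by length on the genome, the shortest had 38.0% higher in DMSO and 28.2% lower, and the longest 29.1% and 40.9%.

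The cytosolic ribosomal protein genes, which are short, were higher in DMSO in 32 of 35 cases and lower in 0 (median 0.25). RPL11 had 421, 418 and 427 CPM in DMSO and 269, 266 and 268 CPM in siCtrl, and RPL27A was 1.54-fold higher. The part of gene length in this was not tested, and the many processed copies of these genes make single values uncertain.

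Glycolysis was divided, 9 higher and 11 lower of 23 (median −0.05). The liver-type phosphofructokinase PFKL was 2.2-fold higher in DMSO, while the glycolytic activator PFKFB3 was 2.04-fold, the enolase ENO2 2.21-fold and the hexokinase HK2 2.31-fold lower. Genes of the hypoxia-inducible factor list, HIF1A and its targets, were lower in 14 of 18 cases and higher in 2 (77.8% lower, median −0.44). The 2 higher in DMSO were HIF1A itself (0.45) and CA12 (0.52), as log2 fold changes. NDRG1, an induced target on this list, had 61.8, 58.6 and 59.7 CPM in DMSO and 251, 248 and 241 CPM in siCtrl, 4.11-fold lower in DMSO. The demethylase KDM3A was 2.26-fold and the mitophagy gene BNIP3 2.16-fold lower. NDRG1 stood at −2.05 in Ceapin minus siATF6 against −2.04 in DMSO minus siCtrl.

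Lipid genes changed in both directions. Of 25 cholesterol synthesis and uptake genes, 11 were higher and 6 lower (median 0.05), with FDPS 1.85-fold and ACAT2 1.65-fold higher and SC5D 1.45-fold lower. Between Ceapin and siATF6, 8 were higher in Ceapin and 13 lower. The cholesterol exporter of the lysosome, NPC1, had 625, 631 and 635 CPM in DMSO and 1292, 1304 and 1298 CPM in siCtrl, and its partner NPC2 was 1.36-fold lower. Cholesterol export and LXR genes were 5 higher and 4 lower of 11 (median −0.05), and fatty acid synthesis and storage genes 11 higher and 6 lower of 20 (median 0.12). Fatty acid synthase (FASN) had 607, 628 and 615 CPM in DMSO and 292, 307 and 291 CPM in siCtrl, whereas the lipid droplet coat PLIN2 was 2.26-fold lower. Fatty acid oxidation genes were 9 higher and 6 lower of 17, CPT1A, which admits fatty acids to mitochondria, being 1.58-fold lower.

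Lysosome and autophagy genes were lower in 19 of 26 cases and higher in 3 (73.1% lower, median −0.40), and all 19 were lower in Ceapin minus siATF6. The autophagosome protein MAP1LC3B (chromosome 16, 87383995 to 87404779) had 143, 139 and 147 CPM in DMSO and 425, 417 and 424 CPM in siCtrl. The cargo receptor SQSTM1 had 326, 334 and 336 CPM in DMSO and 783, 794 and 770.0 CPM in siCtrl. The membrane protein LAMP2 was 1.72-fold lower. ATP6V0D2, a subunit of the proton pump that acidifies lysosomes, was the largest fall of all named genes, with 1.11, 0.904 and 1.11 CPM in DMSO and 17.6, 17.6 and 20.1 CPM in siCtrl, 17.6-fold lower.

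The branches of the ER stress response, which Tg triggers in both groups, were set differently. Of 20 effectors of PERK, ATF4 and CHOP, 18 were lower in DMSO (90.0%, median −0.46) and 2 higher. The secreted calcium regulator STC2 had 179.7, 189 and 182 CPM in DMSO and 535, 517 and 534 CPM in siCtrl, and CEBPG, a partner of ATF4, was 1.76-fold lower. DDIT3, the CHOP gene, chosen after its values were seen, differed by only 1.22-fold. Amino acid synthesis and transport genes under ATF4 were lower in 16 of 20 cases and higher in 2 (median −0.62). SLC7A5, the carrier of large amino acids (chromosome 16, 87830023 to 87869488), had 378, 394 and 407 CPM in DMSO and 897, 910.5 and 899 CPM in siCtrl. The cystine carrier SLC7A11 had 149, 142 and 148 CPM in DMSO and 364, 380.3 and 376 CPM in siCtrl. ASNS, which makes asparagine, was 2.11-fold and SLC3A2, the partner chain of both carriers, 1.93-fold lower. Aminoacyl-tRNA synthetases were 7 higher and 12 lower of 20, GARS1 being 1.89-fold and MARS1 1.67-fold lower.

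Genes of the stress sensors, their proteases and cofactors were 5 higher and 4 lower of 11 (median 0.12). The IRE1 branch was lower too, 11 of 15 against 1 higher (median −0.35). The sensor gene ERN1 itself was 2.09-fold and the co-chaperone DNAJB9 1.76-fold lower. Chaperone genes driven by ATF6 leaned upward, 10 higher and 4 lower of 15, but by little (median 0.13), and split evenly between Ceapin and siATF6, with 6 higher in Ceapin and 6 lower (median 0.01). CALR was 1.27-fold and MANF 1.45-fold higher, SEL1L 1.4-fold and CANX 1.21-fold lower. Their summed level was 5863 to 5931 CPM in DMSO and 5922 to 6013 CPM in siCtrl, a small overlap. HSPA5 (BiP), chosen after its values were seen, had 1473, 1460 and 1464 CPM in DMSO and 1397, 1363 and 1397 CPM in siCtrl, 1.06-fold higher in DMSO although ATF6 mRNA was 1.75-fold lower there.

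Other stress systems differed gene by gene. The list of cytosolic heat-shock genes also holds HSPD1 and HSPE1, genes of mitochondrial chaperones, and HSF1, a transcription factor gene. Of its 15 tested genes, 6 were higher and 5 lower (median 0.01). HSP90AA1 had 2482, 2451 and 2514 CPM in DMSO and 1304, 1237 and 1314 CPM in siCtrl, the small chaperone HSPB1 was 2.12-fold higher and HSPB8, which acts with autophagy, 3.43-fold lower. Genes of the NRF2 list, which holds NFE2L2 (NRF2) and its inhibitor KEAP1 beside targets, were 7 higher and 14 lower of 24 (median −0.14). The exporter ABCC3 was 2.12-fold higher and GCLC, which starts glutathione synthesis, 1.62-fold lower. Of 9 genes of the aryl hydrocarbon receptor list, which holds the receptor gene AHR, its partner ARNT and NFE2L2 beside targets, 8 were lower and 1 higher (median −0.76). The cytochrome CYP1B1 was 1.95-fold, TIPARP 1.69-fold and the receptor gene AHR 1.81-fold lower. Of 10 metallothioneins and zinc carriers, 1 was higher (SLC39A10, 2.13-fold) and 6 lower, among them MT1E, 2.21-fold lower, a gene with similar paralogs. Death and survival genes of the BCL2 family split, 5 higher and 8 lower of 16. Of the 5 survival genes among them, BCL2, BCL2L2 and MCL1 were lower, BCL2L1 higher and BCL2A1 not called. MCL1 had 705, 682 and 708 CPM in DMSO and 1323, 1328 and 1344 CPM in siCtrl, BCL2L1 was 1.88-fold higher and the death gene BMF 3.38-fold lower.

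**Figure D4:**
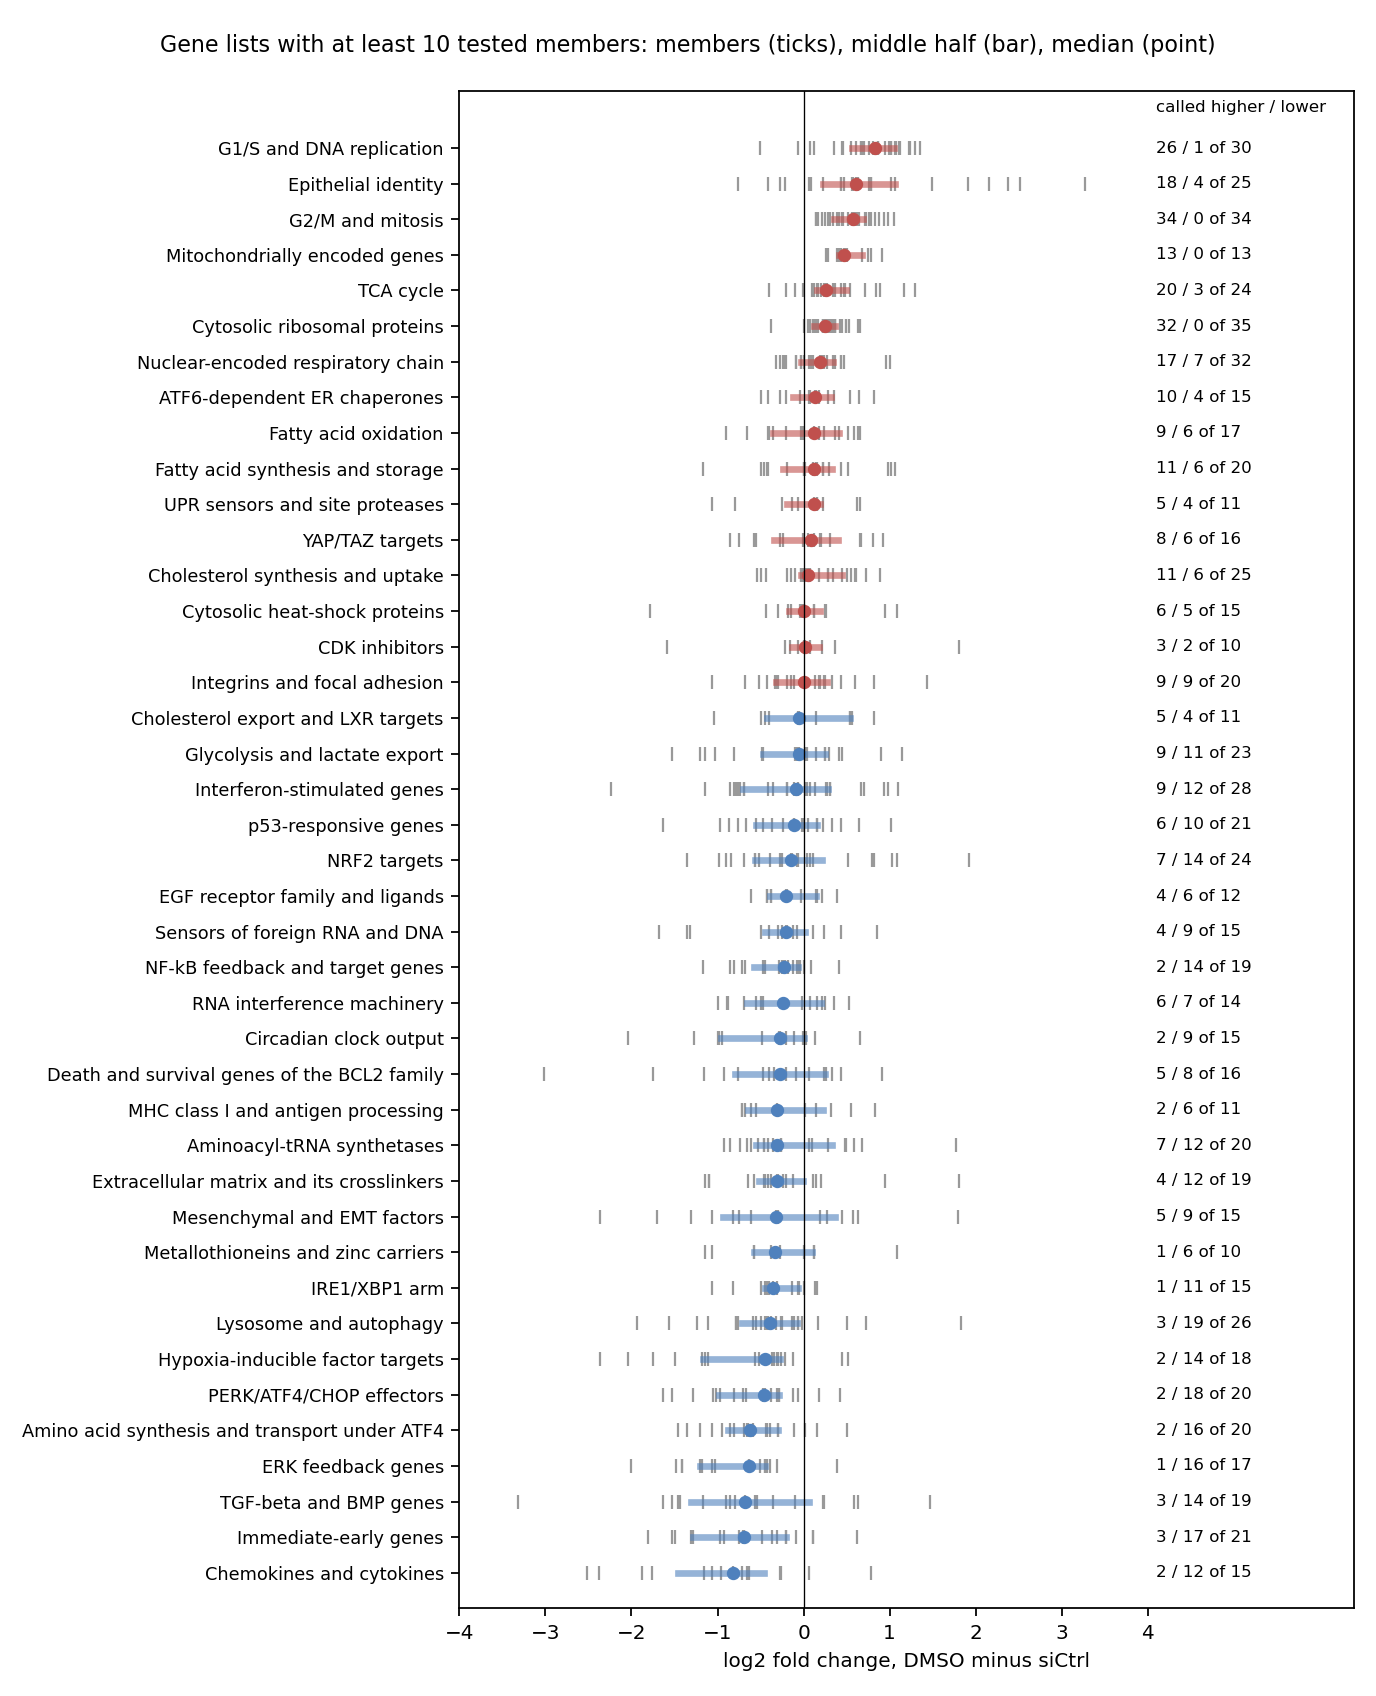
Log2 fold change, DMSO minus siCtrl, of the members of each gene list with at least 10 tested members: ticks are members, the bar the interquartile range and the point the median, with the counts called higher and lower at the right. G1/S genes have the highest median (0.84) and chemokines and cytokines the lowest (−0.82); within most lists members lie on both sides of 0.

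Clock genes, which can reflect time in culture, were lower in 9 of 15 cases and higher in 2 (median −0.27), with the repressor NR1D2 1.97-fold lower and BMAL1 1.22-fold lower. Of 7 tested genes of the androgen receptor axis 1 was higher and 4 lower, FKBP5, a chaperone regulator also induced by glucocorticoids, being 2.05-fold higher. KLK3 and TMPRSS2 were not among the tested genes. Of 3 tested basal markers CD44 alone was called, 1.81-fold lower. Of 4 tested neuroendocrine markers ENO2 alone was called, which is also an enzyme of glycolysis. Fibroblast markers were called higher in 2 of 6 cases, FBLN1 (15 ± 0.879 CPM in DMSO and 6.19 ± 0.446 CPM in siCtrl; SD, n = 3 each) and ACTA2, whose call at 0.84 (edgeR adjusted p = 0.047) was lost under most other settings. Of 3 tested leukocyte markers 1, ITGAM, was lower and 0 higher. Of 6 endothelial markers 2 were higher and 1 lower, and PECAM1 had 0.939, 1.13 and 0.831 CPM in DMSO and 0.279, 0.258 and 0.39 CPM in siCtrl.

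The remaining large falls were of varied function. SLAMF7, a receptor of immune cells, had 12.8, 12.3 and 13.9 CPM in DMSO and 87.5, 84.4 and 82.8 CPM in siCtrl. The thrombin receptor subunit F2RL2 was 7.89-fold lower, the deacetylase HDAC9 6.08-fold, NATD1 5.96-fold and the protease inhibitor SERPINB7 4.81-fold. The parathyroid hormone-related peptide gene PTHLH was 4.72-fold, the myeloid receptor TREM1 4.35-fold, the GTPase RRAD 4.21-fold and KIAA0319 4.13-fold lower. With ATP6V0D2, INHBA, MMP1, CSF2, IL24 and LOX these are the 15 largest falls, and all 15 were also lower in Ceapin than in siATF6, by log2 fold changes from −0.98 for CSF2 to −3.58 for ATP6V0D2.

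For some genes the arms differed by unequal amounts in the 2 contrasts. The gap between the contrasts was called for 4167 genes (23.4%), at least 2-fold for 198 of them, and includes genes such as CXCL8 and LOX that were called in the same direction in both. GANAB, a glucosidase that trims glycoproteins in the ER, had 719.5, 713 and 716 CPM in DMSO and 319, 323 and 314 CPM in siCtrl, 2.25-fold higher in DMSO. In the other libraries it averaged 701.9 ± 16.6 CPM in Ceapin and 752.7 ± 22.3 CPM in siATF6 (SD, n = 3 each), so siCtrl was the low group. TPM4, a tropomyosin, had the same form, averaging 577 ± 11.3 CPM in DMSO, 257 ± 4.25 CPM in siCtrl, 524.4 ± 4.53 CPM in Ceapin and 563 ± 6.43 CPM in siATF6. HK2 and DUSP5 had the reverse form: HK2 averaged 29.4 ± 0.554 CPM in DMSO, 67.8 ± 3.06 CPM in siCtrl, 31.4 ± 1.90 CPM in Ceapin and 30.6 ± 1.69 CPM in siATF6. For CDH1, INHBA, NDRG1, MAP1LC3B and AGO2 the gap was not called (edgeR adjusted p = 0.88, 0.051, 0.92, 0.44 and 0.32), which does not show that the arms differ alike in them.

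**Figure D5:**
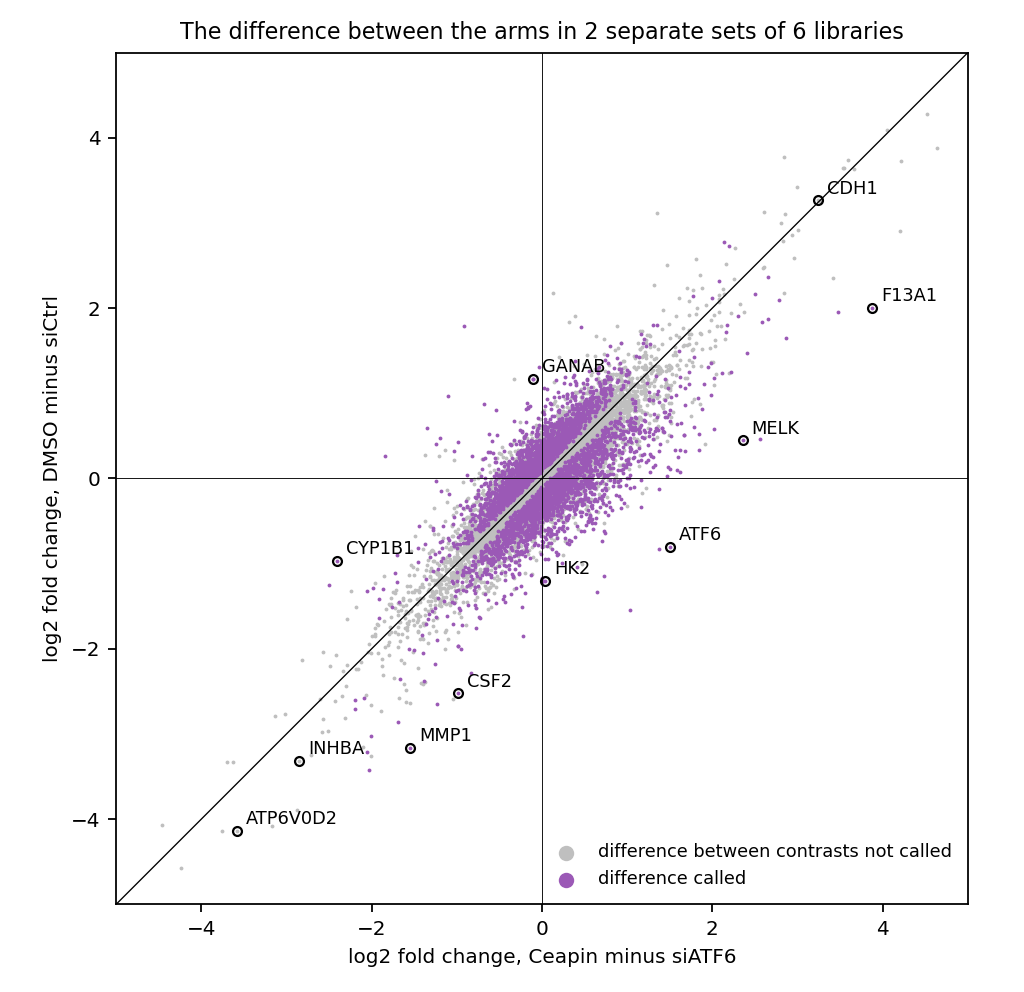
Log2 fold change in DMSO minus siCtrl (vertical) against Ceapin minus siATF6 (horizontal), from separate sets of 6 libraries, with equality as the diagonal. Tested genes with the lowest mean CPM in DMSO and siCtrl are left out. Purple points are the genes shown, out of 4167 in all, whose gap between the contrasts was called. CDH1 (3.27 and 3.24) lies on the diagonal, GANAB (1.17 and −0.10) and HK2 (−1.21 and 0.04) near the vertical axis, and ATF6 (−0.80 and 1.5) far from the diagonal.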

How the data were processed

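RNA was measured in 12 libraries of DU145 cells, 3 in each of 4 groups. Total RNA was made into libraries with a stranded TruSeq kit, per the labels' protocols. The deposited table holds expected counts per gene that the authors estimated with Salmon (a version that the sources used here do not give) on hg38, per the submitters' processing notes. The columns named NC were taken as siCtrl, the group left once the other columns were matched by name, with replicate numbers as in the titles.

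Counts were rounded to whole numbers and genes with few counts removed (edgeR filterByExpr), which left 17823 of 21439 genes. edgeR 4.0.16 in R 4.3.3 fitted 1 term per group over all 12 libraries with TMM scaling (quasi-likelihood test, Benjamini-Hochberg adjustment, threshold 0.05). CPM are counts scaled by TMM library size, a level per read and not per length. Fold changes are DMSO over siCtrl. DESeq2 1.42.0 and limma 3.58.1 served as alternatives, with other scalings, filters and left-out libraries.

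Genes are named by rule: ATF6, the 15 largest called rises and falls (groups apart, mean level 5 CPM or more), up to 4 called members of each of 49 lists by smallest p, and the genes most alike or most different between the arm contrasts. KRT19, EPCAM, VIM, S100A4, DROSHA, CCND1 and EPHA2, and those so marked in the text, were chosen after their values were seen. A few genes that the rule names are not reported here. The comparison and the lists were chosen with earlier results of these data known, so list counts carry no test. In counts simulated for DMSO against siCtrl, 40 of 50 genes changed 2-fold were called, and 1 of 17623 unchanged genes. The simulated spread between replicates was set wider than that of the data, so these rates do not describe the present libraries. Totals of 17760878 to 19202632 counts set the precision, and the common biological coefficient of variation was 0.0196. Replicates of a group differed by more than counting noise (chi-square per gene 1.41 to 1.87), so none was counted as a repeat deposit. Deviations of same-numbered libraries did not correlate (−0.036 to 0.031), so replicate numbers were not taken to pair them.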

Additional observations from a re-analysis of the deposited data

Results flagged for a closer look

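The difference between DMSO and siCtrl was not equal to that between Ceapin and siATF6 for 4167 genes (edgeR quasi-likelihood test of the gap, adjusted over all tested genes). The values below are that gap in log2 units, DMSO minus siCtrl less Ceapin minus siATF6.

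ATF6 had a gap of −2.3, with means of 71.4 CPM in DMSO, 124.6 in siCtrl, 72.9 in Ceapin and 25.8 in siATF6. MELK, a kinase of dividing cells, had a gap of −1.91 and averaged 178.2 CPM in DMSO, 130.6 in siCtrl, 174.9 in Ceapin and 34.1 in siATF6. ADPRH (−2.11) and the clotting factor gene F13A1 (−1.88) were likewise lowest in siATF6, F13A1 with 84.2 CPM in DMSO, 21 in siCtrl, 80.8 in Ceapin and 5.48 in siATF6. SAMD5 had −1.87. In these genes siATF6 was the group that stood lowest.

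The gap was −1.62 for MMP1 and −1.54 for CSF2, both lower in DMSO than siCtrl by more than Ceapin was lower than siATF6. CD83 (−1.17), HK2 (−1.24) and DUSP5 (−1.21) were high in siCtrl alone, CD83 with 11.6 CPM in DMSO, 26.1 in siCtrl, 14.1 in Ceapin and 14.1 in siATF6. GANAB (1.27) and TPM4 (1.27) were low in siCtrl alone. CYP1B1 had a gap of 1.44, averaging 89.8 CPM in DMSO, 175.5 in siCtrl, 47.0 in Ceapin and 248.7 in siATF6. PRDX4, a peroxide-reducing enzyme of the ER, had 1.14 and was highest in siATF6.

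HLA-B (1.35) and CD99 (1.08) varied widely within groups. CD99 had 76, 35.1 and 51.5 CPM in DMSO and 34.1, 33.7 and 68.9 CPM in siCtrl, which overlap, and HLA reads can be shared among near-identical genes.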

How the results depend on the processing

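Calls in DMSO minus siCtrl numbered 9630 with DESeq2 (4792 higher, 4838 lower) and 9526 at an adjusted p under 0.01. They were 10617 with a filter of 1 CPM, 10916 from the 6 libraries alone, 10981 with limma-voom, 11028 with library totals, 11030 with DESeq2-type scaling and 11116 with no filter. Other scalings moved the median of all genes to between −0.015 and 0.004, against 0.009. With a 2-fold minimum, 1579 genes were called (747 higher, 832 lower), 1559 in Ceapin minus siATF6 (884 and 675) and 198 for the gap (54 and 144). Leaving out each library in turn gave 10475 to 10559 calls (higher 5235 to 5322, lower 5190 to 5286) in DMSO minus siCtrl. It gave 10241 to 10337 (5163 to 5281, 5017 to 5139) in Ceapin minus siATF6, 3763 to 4055 (1922 to 2153, 1782 to 1902) for the gap, and 2.47 to 2.78 points for the mitochondrial share.

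Without DMSO replicate 1, the sign turned for HLA-B (−0.32, and up to 0.62 without DMSO replicate 3) and CD99 (−0.07), and CD99 was called at 0.68 (edgeR adjusted p = 0.045) without siCtrl replicate 3; the cause was not tested. ACTA2 was not called with DESeq2 (adjusted p = 0.15). The replicate block gave 11003 calls (5548 higher, 5455 lower) and the numbers are not shown to pair the libraries. Levels near 1 CPM are the least precise.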
